A study of Homo sapiens with 27 samples.

Results

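The comparison described here is between DLD1 cells depleted of VPS37A, VPS37B and VPS37C and DLD1 cells depleted of VPS37B and VPS37C alone. It uses the 3 siVPS37ABC libraries and the 3 siVPS37BC libraries, 6 of the 27 libraries of the series, chosen by the siRNAs named in the labels and paired by the replicate number that starts each label. DLD1 is a human colorectal carcinoma cell line. siVPS37ABC cells received the siRNAs siVPS37A#1, siVPS37B#1 and siVPS37C#1, and siVPS37BC cells received siVPS37B#1 and siVPS37C#1, so both groups carried the same pair of siRNAs and differed by the one against VPS37A. Each paralog was targeted by a single siRNA sequence, and cells were collected 72 h after transfection. Whether siVPS37BC cells were given a control siRNA to keep the total amount equal was not given in the sources used here. Loss of VPS37A, other effects of its siRNA sequence and the amount of siRNA therefore cannot be told apart. Replicates are described as biological, and their number is also the batch in the labels; nothing else says that they came from separate cultures, so p-values measure the spread between these libraries.

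VPS37 proteins are alternative subunits of ESCRT-I, a complex that also holds TSG101 and VPS28 and recognises ubiquitinated membrane proteins on endosomes. With ESCRT-0, ESCRT-II and ESCRT-III it packs receptors such as EGFR and the tumour necrosis factor receptors into vesicles inside the endosome, which then fuses with the lysosome. Receptors that are not sorted in this way can keep signalling to MAP kinases and to NF-kB, a transcription factor of inflammatory genes. The comparison asks which transcripts changed when the VPS37A siRNA was added to cells already depleted of the other paralogs.

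Values are parts of a library total of 1000000 (TPM) for 10470 genes, measured by amplicon sequencing. Sequencing depth is not known, and counting error is therefore not given. limma was run on log2(TPM + 1) for the 6458 genes that averaged 10 TPM or more across the 27 libraries, in a model of the 9 groups with a term for the replicate number. Changes below are siVPS37ABC minus siVPS37BC on that scale, with the standard error (SE), n = 3 libraries per group, and p adjusted by the Benjamini-Hochberg method over all tested genes. A gene is said to rise or fall where its adjusted p was under 0.05. Because TPM are shares of one total, fewer cells of a kind and less RNA per cell cannot be told apart.

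VPS37A, the subunit removed, was measured at 0.153, 0.574 and 0.539 TPM in the siVPS37ABC libraries of replicates 1, 2 and 3, against 4.28, 4.03 and 3.78 TPM in the siVPS37BC libraries. Every siVPS37ABC library was lower than every siVPS37BC library (log2 change -1.84 ± 0.13, limma adjusted p = 1.97e-10 in the model without the filter on low values). VPS37B, targeted in both groups, was at 3.44 ± 0.629 TPM in siVPS37ABC and 2.54 ± 1.03 TPM in siVPS37BC (SD, n = 3), where siCTRL cells, given control siRNAs, had 46.4 ± 6.54 TPM. It did not pass (0.36 ± 0.18, limma adjusted p = 0.157), although it did after quantile normalization (0.48, limma adjusted p = 0.0358), without the libraries of replicate 3 (0.46, limma adjusted p = 0.0185) and without siVPS37BC replicate 3 (0.55, limma adjusted p = 0.0455). VPS37C was at 3.98 ± 0.497 TPM in siVPS37ABC and 5.02 ± 0.467 TPM in siVPS37BC, against 17.5 ± 1.73 TPM in siCTRL (-0.28 ± 0.20, limma adjusted p = 0.334). Both common targets were low in all 6 libraries. VPS37A itself was at 7.27 ± 4.02% of its siCTRL level in siVPS37ABC and at 69.4 ± 4.30% in siVPS37BC, where it was not targeted (SD, n = 3).

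**Figure D1:**
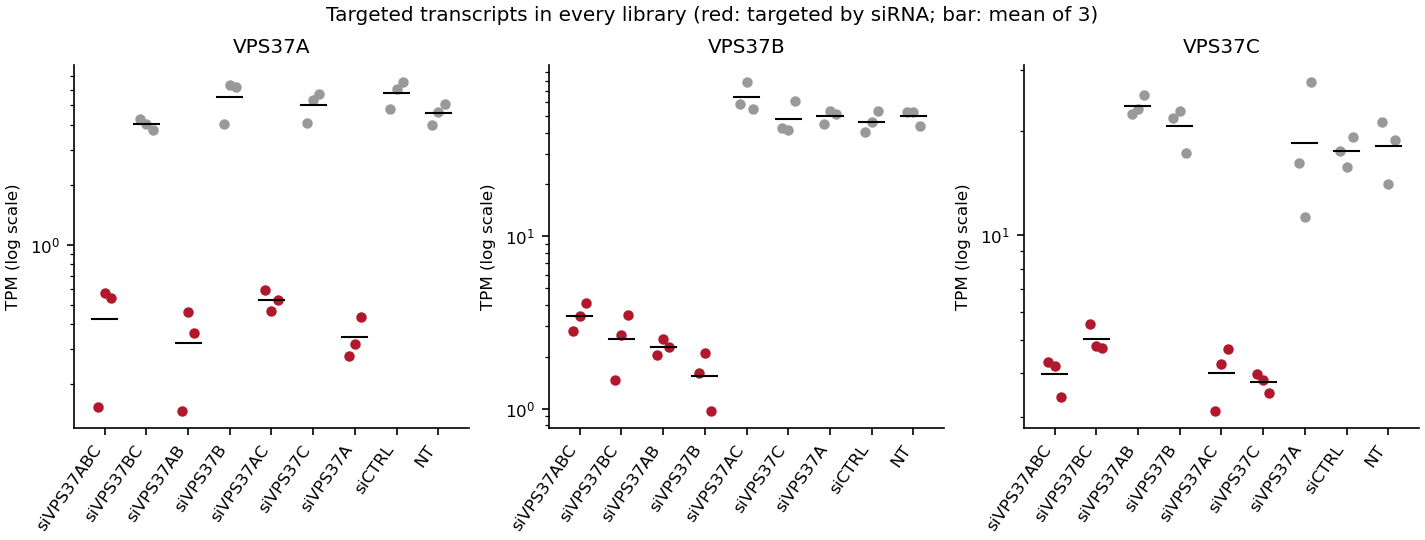
TPM on a log axis of VPS37A, VPS37B and VPS37C in each of the 27 libraries by group, with libraries that received an siRNA against the gene in red, others in grey and the mean of 3 libraries as a bar. VPS37A lies between 0.153 and 0.574 TPM in siVPS37ABC and between 3.78 and 4.28 TPM in siVPS37BC, while VPS37B and VPS37C are low in both.

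The epithelial markers matched the label of the line: all 8, among them EPCAM and keratins KRT8, KRT18 and KRT19, were listed and summed to 10100 to 11500 TPM in siVPS37ABC libraries and 9520 to 11200 TPM in siVPS37BC libraries. Of 7 fibroblast markers ACTA2 alone is listed (1.37 to 3.04 TPM in siVPS37ABC, 2.34 to 3.26 TPM in siVPS37BC), of 6 leukocyte markers CD14 and CSF1R alone (summed 4.14 to 6.25 TPM in siVPS37ABC, 7.32 to 9.70 TPM in siVPS37BC), and of 5 endothelial markers EGFL7 alone (2.60 to 5.90 TPM in siVPS37ABC, 1.85 to 6.09 TPM in siVPS37BC). VIL1, villin of the brush border, was low in both (1.16 TPM in siVPS37ABC and 1.48 TPM in siVPS37BC). In the model without the filter CD14 fell (-1.0 ± 0.20, limma adjusted p = 0.000644) and CSF1R rose (1.05 ± 0.14, limma adjusted p = 5.97e-06), both at under 10 TPM. Their part in the results was not tested.

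Adding the VPS37A siRNA to siVPS37BC cells changed 1447 of 6458 genes (22.4%), 810 up (12.5%) and 637 down (9.86%). Among the listed gene groups, 10 of 16 NF-kB targets, 15 of 24 MAP kinase and immediate early genes, 10 of 15 NRF2 targets and 15 of 32 lysosomal genes rose. In the other direction, 36 of 42 core histone genes, 15 of 40 replication genes and 15 of 32 mitosis genes fell. Of the called genes, 1437 moved the same way in all 3 same-numbered pairs, and 92 rose and 29 fell by more than 2-fold. The 3 libraries of each group did not overlap for 1946 genes (30.1%), 1045 higher (16.2%) and 901 lower (14.0%) in siVPS37ABC. List counts and genes without overlap given below are to be read against these shares. The median change over all tested genes was 0.0028 and the median SE 0.141. Without the term for the replicate number 776 genes were called, 482 up and 294 down; quantile normalization gave 740 up and 755 down, a more even split. The count was 894 without siVPS37BC replicate 1, 957 without siVPS37BC replicate 2 and 945 without siVPS37ABC replicate 3.

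The largest rise was in CDA, cytidine deaminase, an enzyme of pyrimidine salvage. It had 94.2, 113 and 97.0 TPM in siVPS37ABC, against 8.41, 13.8 and 10.1 TPM in siVPS37BC (3.14 ± 0.19, limma adjusted p = 3.86e-11). The lowest siVPS37ABC library was far above the highest siVPS37BC library. KRTAP2-3, a keratin-associated protein gene, had 101, 90.6 and 134 TPM in siVPS37ABC, against 25, 19.2 and 17.7 TPM in siVPS37BC (2.34 ± 0.19, limma adjusted p = 2.36e-09). LAMB3, a laminin chain of the basement membrane, had 121, 113 and 139 TPM in siVPS37ABC, against 30.8, 30.2 and 23.9 TPM in siVPS37BC (2.10 ± 0.17, limma adjusted p = 1.75e-09). Neither gene overlapped between the groups. CDKN1A, the cyclin-dependent kinase inhibitor p21, had 87.2, 88.8 and 103 TPM in siVPS37ABC, against 22.7, 28.5 and 18.9 TPM in siVPS37BC (1.96 ± 0.22, limma adjusted p = 3.37e-07). NDRG1, a gene that responds to hypoxia and other stress, rose by 1.78 ± 0.20 to a mean of 66.0 TPM in siVPS37ABC, against 18.6 TPM in siVPS37BC. In both, replicate 3 of siVPS37ABC was the highest of the 6 libraries, and the groups stayed apart.

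**Figure D2:**
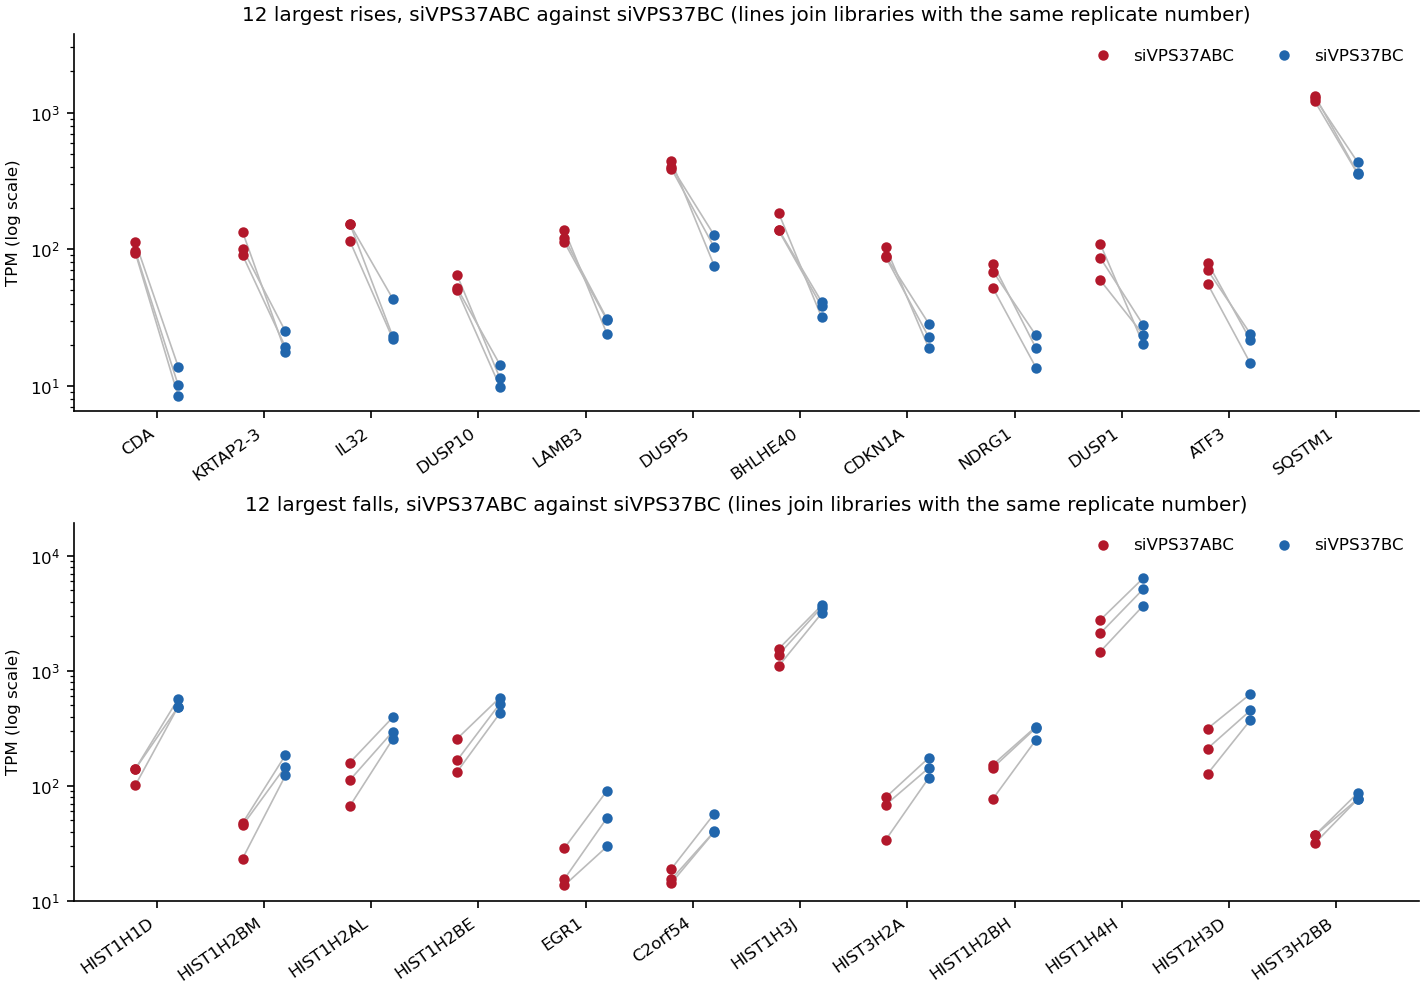
TPM on a log axis in the 3 siVPS37ABC (red) and 3 siVPS37BC (blue) libraries for the 12 largest rises (top) and 12 largest falls (bottom) among genes averaging 30 TPM or more, with lines joining libraries of the same replicate number. In none of the 24 genes, chosen for large changes in these same libraries, do the groups overlap, as in 30.1% of all tested genes. CDA spans 94.2 to 113 TPM in siVPS37ABC and 8.41 to 13.8 TPM in siVPS37BC.

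Among NF-kB targets and inflammatory cytokines, 10 of 16 tested members rose and 1 fell, with a median change of 0.68. IL32, a proinflammatory cytokine, had 115, 153 and 154 TPM in siVPS37ABC, against 22.2, 43.5 and 23.1 TPM in siVPS37BC (2.26 ± 0.23, limma adjusted p = 6.49e-08). NFKB2, the precursor of the p52 subunit of the noncanonical pathway, had 138, 174 and 202 TPM in siVPS37ABC, against 53.1, 58.0 and 64.3 TPM in siVPS37BC (1.52 ± 0.16, limma adjusted p = 2.15e-07). All siVPS37ABC libraries exceeded all siVPS37BC libraries in both genes. NFKBIA, which encodes the inhibitor IkB-alpha and is itself an NF-kB target, had 118, 110 and 139 TPM in siVPS37ABC, against 57.1, 73.4 and 81.3 TPM in siVPS37BC (0.79 ± 0.12, limma adjusted p = 2.94e-05). LCN2, an iron-scavenging protein of innate immunity, rose by 0.83 ± 0.14 (limma adjusted p = 9.35e-05), but missed the threshold without the replicate term (limma adjusted p = 0.0946). RELB, the partner of p52, rose by 0.88 ± 0.16 and the chemokine CXCL8 by 1.53 ± 0.31. The member that fell was the mitochondrial superoxide dismutase SOD2 (-0.40 ± 0.13), a call lost without the replicate term. Of 9 TNF receptor superfamily genes, 4 rose and 1 fell (median 0.26), against 12.5% and 9.86% of all tested genes; without the replicate term 2 rose and 0 fell. The death receptor TNFRSF10A was at 62.0 ± 7.05 TPM in siVPS37ABC and 44.5 ± 3.56 TPM in siVPS37BC (0.47 ± 0.12, limma adjusted p = 0.00567); that call was lost when all libraries of replicate 1 (limma adjusted p = 0.0688) or of replicate 2 (limma adjusted p = 0.0860) were left out.

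The 250 bases before the annotated start of IL32 and of NFKBIA are shown because both genes rose and both windows hold a match to the NF-kB consensus, given in capitals. The sequences are from RefSeq on GRCh38.p14, 5′ to 3′ on the strand of the gene: IL32 lies on the plus strand at chr16:3065153-3065402 and NFKBIA on the minus strand at chr14:35404750-35404999.
IL32: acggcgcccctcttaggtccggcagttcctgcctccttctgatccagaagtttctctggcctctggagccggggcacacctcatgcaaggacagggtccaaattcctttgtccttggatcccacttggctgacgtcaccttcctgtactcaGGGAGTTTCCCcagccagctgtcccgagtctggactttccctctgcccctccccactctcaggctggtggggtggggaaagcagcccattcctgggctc
NFKBIA: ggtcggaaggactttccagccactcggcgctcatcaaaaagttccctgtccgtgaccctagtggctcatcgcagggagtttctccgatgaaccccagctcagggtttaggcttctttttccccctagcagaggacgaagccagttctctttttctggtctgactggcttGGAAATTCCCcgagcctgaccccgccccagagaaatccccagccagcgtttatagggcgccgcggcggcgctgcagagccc
The IL32 window holds 2 overlapping matches, one on each strand, starting 99 and 98 bases before the start, and the NFKBIA window holds 1, starting 81 bases before it. Of the 16 tested list members, 13 were found in the promoter table and 8 held a match on either strand (61.5%), against 9.57% of 27305 promoters of the same length and 11.5% of the 5464 tested genes found there. Of the 8 called members found, 4 held a match. A match is a description of the letters and not a bound site.

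In the list of MAP kinase feedback and immediate early genes, 15 of 24 rose and 1 fell (median 0.58). Over all tested genes 12.5% rose and 9.86% fell. DUSP10, a phosphatase that acts on the stress kinases JNK and p38, had 50.4, 52.1 and 64.9 TPM in siVPS37ABC, against 9.89, 14.3 and 11.4 TPM in siVPS37BC (2.15 ± 0.14, limma adjusted p = 8.96e-11). DUSP5, a nuclear phosphatase of ERK, had 387, 402 and 439 TPM in siVPS37ABC, against 103, 126 and 75.4 TPM in siVPS37BC (2.03 ± 0.16, limma adjusted p = 1.95e-09). DUSP1, an immediate early phosphatase of several MAP kinases, had 86.4, 59.2 and 109 TPM in siVPS37ABC, against 27.9, 23.7 and 20.2 TPM in siVPS37BC (1.75 ± 0.25, limma adjusted p = 1.59e-05). The spread of DUSP1 among siVPS37ABC libraries was wide, but its lowest value there was above all siVPS37BC libraries. The transcription factors BHLHE40 (2.01 ± 0.17), ATF3 (1.74 ± 0.22) and KLF6 (1.54 ± 0.14) rose as well. EGR1, an immediate early transcription factor, moved the other way: it had 28.6, 15.4 and 13.6 TPM in siVPS37ABC, against 90.8, 52.7 and 29.7 TPM in siVPS37BC (-1.47 ± 0.26, limma adjusted p = 0.000174). Its level differed between replicates in both groups, yet within each replicate number the siVPS37ABC library was the lower one. Of 9 genes of EGFR, its relatives and ligands, 4 rose and 0 fell (median 0.44). The ligands HBEGF (1.19 ± 0.16) and AREG (1.03 ± 0.22), the feedback inhibitor ERRFI1 (1.01 ± 0.17) and EGFR itself (0.60 ± 0.12) were those 4. EGFR was at 53.5, 60.8 and 62.6 TPM in siVPS37ABC, against 33.5, 41.6 and 40.7 TPM in siVPS37BC, without overlap.

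NRF2 antioxidant targets rose in 10 of 15 members and fell in 0 (median 0.68), against 12.5% and 9.86% of all tested genes. FTL, the ferritin light chain that stores iron, had 6520, 7800 and 7000 TPM in siVPS37ABC, against 1940, 2270 and 2460 TPM in siVPS37BC (1.68 ± 0.18, limma adjusted p = 3.01e-07). Its partner FTH1, the heavy chain, averaged 5960 ± 543 TPM in siVPS37ABC and 3730 ± 359 TPM in siVPS37BC (SD, n = 3; 0.68 ± 0.10). Ferritin genes have processed pseudogene copies, so their single values are uncertain. SRXN1, which repairs oxidised peroxiredoxins, had 133, 114 and 123 TPM in siVPS37ABC, against 44.4, 40.2 and 32.3 TPM in siVPS37BC (1.64 ± 0.16, limma adjusted p = 5.77e-08). The subunits of glutamate-cysteine ligase, the rate-limiting enzyme of glutathione synthesis, both rose: GCLC by 1.00 ± 0.14 and GCLM by 1.18 ± 0.17. All of these genes kept their groups apart. Of 12 members found in the promoter table, 3 held the antioxidant response element core TGACNNNGC on either strand (25%). It was held by 11.0% of all promoters and 12.6% of the tested genes, and by 2 of the 7 called members found. GCLM is shown, with its single match in capitals starting 34 bases before the start (minus strand of chr1:93909431-93909680, GRCh38.p14, RefSeq).
GCLM: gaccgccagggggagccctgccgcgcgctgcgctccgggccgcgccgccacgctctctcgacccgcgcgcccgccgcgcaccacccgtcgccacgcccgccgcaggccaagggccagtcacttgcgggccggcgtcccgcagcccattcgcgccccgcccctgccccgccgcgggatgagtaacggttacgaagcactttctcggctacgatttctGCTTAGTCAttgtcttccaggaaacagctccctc
The match reads on the strand opposite to the gene. No match in a window says only that these letters are absent from it.

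The endosome and lysosome lists rose in part, where 12.5% of all tested genes rose and 9.86% fell. Of 5 tested ESCRT-I members none passed (median 0.08). They include VPS37B and VPS37C, targeted in both groups, and leave out VPS37A, which averaged under 10 TPM. Of the untargeted members TSG101 changed by 0.08 ± 0.10, VPS28 by -0.06 ± 0.19 and UBAP1 by 0.12 ± 0.17. Of 22 members of ESCRT-0, ESCRT-II, ESCRT-III and VPS4, 7 rose and 0 fell (median 0.24). CHMP2B, an ESCRT-III subunit that recruits VPS4, had 377, 314 and 298 TPM in siVPS37ABC, against 184, 174 and 193 TPM in siVPS37BC (0.83 ± 0.12, limma adjusted p = 1.43e-05). All siVPS37ABC libraries lay above all siVPS37BC libraries. HGS, the ubiquitin-binding subunit of ESCRT-0, had 57.4, 78.0 and 84.4 TPM in siVPS37ABC, against 38.1, 43.8 and 60.2 TPM in siVPS37BC (0.63 ± 0.10, limma adjusted p = 9.65e-05). Here the groups overlapped, since siVPS37ABC replicate 1 lay below siVPS37BC replicate 3, but each pair moved the same way. CHMP1B, another ESCRT-III subunit, rose by 0.73 ± 0.13. Without the replicate term 3 of the 22 rose.

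Of 32 lysosomal hydrolases, membrane proteins and V-ATPase subunits, 15 rose and 2 fell (median 0.34), against 12.5% and 9.86% of all tested genes. NEU1, the lysosomal sialidase, had 55.8, 60.0 and 69.4 TPM in siVPS37ABC, against 23.9, 28.2 and 27.6 TPM in siVPS37BC (1.18 ± 0.11, limma adjusted p = 3.06e-08). GLA, alpha-galactosidase A, rose by 0.81 ± 0.12, PSAP, the precursor of the saposin activators, by 0.66 ± 0.11, and NPC1, which exports cholesterol from lysosomes, by 0.87 ± 0.15. The groups did not overlap in any of these 4 genes. The cathepsins CTSC (-0.60 ± 0.19) and CTSH (-0.34 ± 0.10) were the members that fell, both calls being lost without the replicate term, while CTSB (0.50 ± 0.10) and CTSD (0.51 ± 0.12) rose. Of 20 autophagy receptors, ATG8 proteins and lysosomal regulators of mTORC1, 10 rose and 1 fell (median 0.33). SQSTM1, the autophagy receptor p62, had 1210, 1280 and 1330 TPM in siVPS37ABC, against 356, 433 and 361 TPM in siVPS37BC (1.74 ± 0.12, limma adjusted p = 1.29e-10). WIPI1, a phosphoinositide-binding protein of early autophagosomes, rose by 1.36 ± 0.17 and FNIP1, the partner of folliculin, by 0.74 ± 0.11. MAP1LC3A, an ATG8 protein, fell: it had 5.03, 10.8 and 5.19 TPM in siVPS37ABC, against 12.4, 16.8 and 16.4 TPM in siVPS37BC (-1.08 ± 0.18, limma adjusted p = 7.60e-05). The letters GTCACGTG, an E-box bound by lysosomal master regulators, were searched for on either strand. They were present in 6 of 22 lysosomal members found in the promoter table (27.3%), against 2.27% of all promoters and 4.59% of tested genes. Of the 12 called members among them, 1 held these letters. In the autophagy list 3 of 18 members found held them (16.7%), and 2 of the 10 called.

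Stress and lipid lists also had more rises than falls, where 12.5% of all tested genes rose and 9.86% fell. Among ATF4 and amino acid genes 9 of 17 rose and 0 fell (median 0.37). The cystine transporter SLC7A11 had 43.9, 61.2 and 58.7 TPM in siVPS37ABC, against 11.2, 19.8 and 16.8 TPM in siVPS37BC (1.73 ± 0.17, limma adjusted p = 5.14e-08). TRIB3, a pseudokinase induced by ATF4, rose by 0.87 ± 0.12 and DDIT4, an mTORC1 inhibitor, by 1.32 ± 0.20. None of these 3 overlapped. Of 21 endoplasmic reticulum chaperones and unfolded protein response genes, 7 rose and 0 fell (median 0.27), led by EDEM1 (0.79 ± 0.11), HERPUD1 (1.14 ± 0.17) and DNAJB9 (1.07 ± 0.20), which act in degradation or folding of misfolded proteins. Hypoxia-responsive genes rose in 7 of 11 and fell in 0 (median 0.50), among them VEGFA, an angiogenic growth factor (0.97 ± 0.15), ADM, a vasodilator peptide (1.24 ± 0.20), and the glucose transporter SLC2A1 (0.75 ± 0.13). Cholesterol and fatty acid synthesis genes rose in 12 of 26 and fell in 2 (median 0.33). HMGCS1, an early enzyme of the pathway, had 175, 188 and 318 TPM in siVPS37ABC, against 91.8, 75.2 and 102 TPM in siVPS37BC (1.29 ± 0.16, limma adjusted p = 2.73e-06). Replicate 3 of siVPS37ABC was well above the other siVPS37ABC libraries in HMGCS1. The enzymes PMVK (-0.63 ± 0.20) and TM7SF2 (-0.60 ± 0.21) fell. Without the replicate term 4 of 17 ATF4 genes and 7 of 26 cholesterol genes rose, and 0 of 26 fell. The sterol regulatory element core TCACNCCAC was found in the window of 1 of 20 cholesterol genes, that of SREBF2, which was not among the genes called.

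**Figure D3:**
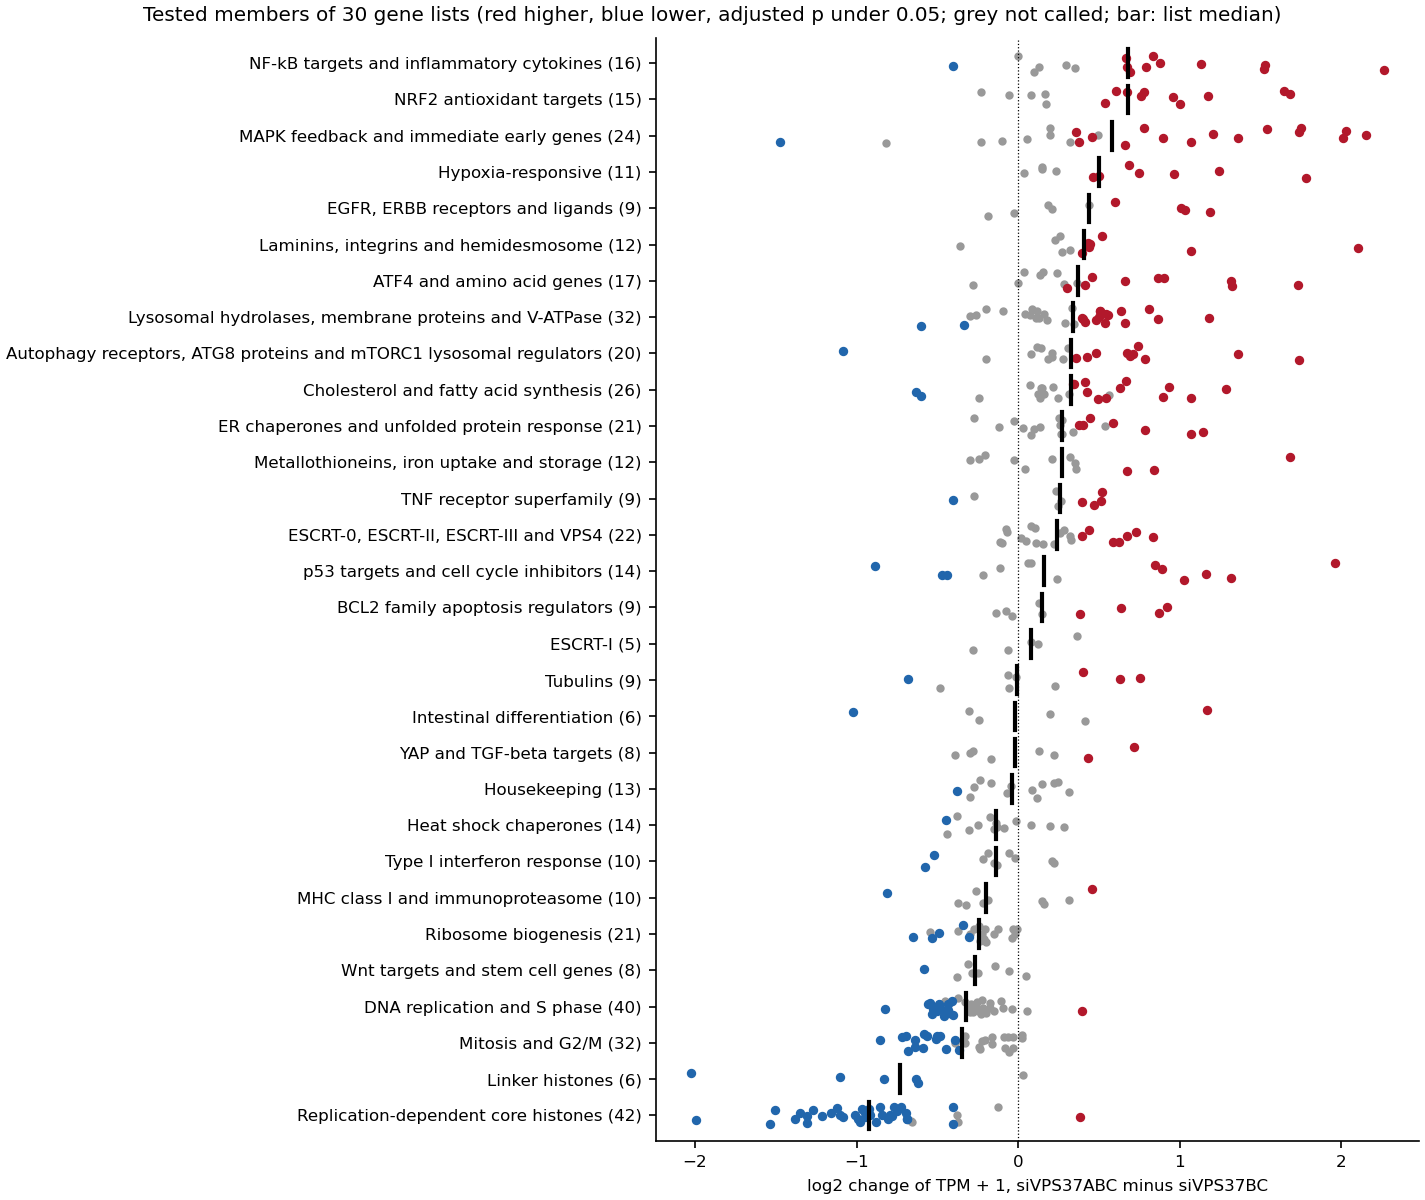
Log2 change of TPM + 1, siVPS37ABC minus siVPS37BC, for the tested members of 30 gene lists, ordered by list median (black bar), with the number of tested members in brackets; red and blue points passed an adjusted p of 0.05. The NF-kB and NRF2 lists have the highest median, 0.68, and core histones the lowest, -0.92.

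Replication-dependent histone genes, whose transcripts build chromatin in S phase, were the largest group of falls. Of 42 core histone genes 36 fell and 1 rose (median -0.92), and of 6 linker histone genes 5 fell and 0 rose (median -0.73). Over all tested genes 9.86% fell and 12.5% rose. The linker list also holds H1F0 (-0.63 ± 0.11), which fell, and H1FX (0.03 ± 0.12), which did not pass. Neither of these is a replication-dependent gene. HIST1H1D, a linker histone gene, had 140, 140 and 101 TPM in siVPS37ABC, against 487, 572 and 489 TPM in siVPS37BC (-2.02 ± 0.14, limma adjusted p = 9.99e-11). HIST1H2BM had 47.4, 45.2 and 23.3 TPM in siVPS37ABC, against 185, 147 and 123 TPM in siVPS37BC (-1.99 ± 0.17, limma adjusted p = 4.03e-09). HIST1H3J, an abundant histone H3 gene, had 1550, 1380 and 1100 TPM in siVPS37ABC, against 3700, 3550 and 3150 TPM in siVPS37BC (-1.38 ± 0.11, limma adjusted p = 1.06e-09). In each gene the highest siVPS37ABC library lay below the lowest siVPS37BC library, and replicate 3 was the lowest of its group in HIST1H2BM and HIST1H3J. Histone H4 gene HIST1H4H fell by 1.27 ± 0.13 on the log2 scale, at 2120 ± 651 TPM in siVPS37ABC and 5060 ± 1360 TPM in siVPS37BC. HIST1H2BK was the core gene that rose (0.39 ± 0.12), a call lost without the replicate term. Histone genes have near-identical copies, so the value of a single gene is uncertain. Among the 12 largest falls of genes that averaged 30 TPM or more, those outside the histones were EGR1 and C2orf54 (-1.43 ± 0.17), a gene of poorly known function that was at 16.2 ± 2.49 TPM in siVPS37ABC and 45.7 ± 9.96 TPM in siVPS37BC.

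DNA replication and S phase genes fell in 15 of 40 and rose in 1 (median -0.32), and mitosis genes fell in 15 of 32 and rose in 0 (median -0.35). These changes were smaller than those of the histones. TYMS, thymidylate synthase, had 353, 358 and 356 TPM in siVPS37ABC, against 478, 520 and 567 TPM in siVPS37BC (-0.55 ± 0.10, limma adjusted p = 0.000171). UHRF1, which maintains DNA methylation at replication forks, fell by 0.83 ± 0.17 and the replication factor GINS2 by 0.49 ± 0.10, the second of which missed the threshold when replicate 2 was left out (limma adjusted p = 0.0554). CCNE1, the cyclin of S phase entry, was the member that rose (0.40 ± 0.14), a call lost without the replicate term. TPX2, a spindle assembly factor, had 67.4, 68.3 and 70.7 TPM in siVPS37ABC, against 111, 112 and 100 TPM in siVPS37BC (-0.64 ± 0.11, limma adjusted p = 0.000137). KIF20A, a kinesin of cytokinesis, fell by 0.86 ± 0.15, and TOP2A, the topoisomerase of chromosome condensation, by 0.70 ± 0.15, with 49.2, 51.2 and 67.0 TPM in siVPS37ABC, against 91.5, 86.8 and 92.3 TPM in siVPS37BC. TOP2A missed the threshold without replicate 1 (limma adjusted p = 0.0725). Without the replicate term 6 of 40 replication genes and 6 of 32 mitosis genes fell. Among p53 targets and cell cycle inhibitors, 6 of 14 rose and 3 fell (median 0.16). Over all tested genes 12.5% rose and 9.86% fell. Beside CDKN1A, the antiproliferative gene BTG1 (1.16 ± 0.13) and the stress gene GADD45A (0.85 ± 0.14) rose, while CDKN2C, the CDK inhibitor p18, fell by 0.89 ± 0.15 to 5.98 ± 1.54 TPM in siVPS37ABC, against 11.7 ± 1.20 TPM in siVPS37BC.

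The windows of TOP2A and HIST1H2BM are shown because they hold letters searched for in the lists that fell: the cell cycle homology region TTTGAA for TOP2A (minus strand of chr17:40417897-40418146) and CCAAT for HIST1H2BM (plus strand of chr6:27814772-27815021, listed in RefSeq as H2BC14), in capitals on either strand, 5′ to 3′, from RefSeq on GRCh38.p14.
TOP2A: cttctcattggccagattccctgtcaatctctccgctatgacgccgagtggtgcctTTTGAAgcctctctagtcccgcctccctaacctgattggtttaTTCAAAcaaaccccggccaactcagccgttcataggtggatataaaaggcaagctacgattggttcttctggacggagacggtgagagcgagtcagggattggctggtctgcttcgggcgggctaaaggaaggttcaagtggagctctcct
HIST1H2BM: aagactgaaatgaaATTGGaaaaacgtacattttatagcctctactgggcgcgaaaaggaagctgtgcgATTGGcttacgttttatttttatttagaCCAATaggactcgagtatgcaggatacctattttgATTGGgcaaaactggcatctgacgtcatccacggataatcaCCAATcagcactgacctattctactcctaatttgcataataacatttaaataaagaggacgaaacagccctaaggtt
TOP2A holds 2 matches to TTTGAA, starting 194 and 151 bases before the start, and HIST1H2BM holds 5 to CCAAT, starting between 236 and 77 bases before it. TTTGAA was present in 13 of 25 mitosis genes found in the promoter table (52.0%), against 13.6% of all promoters and 7.67% of tested genes. Of the 12 called mitosis genes found there, 6 held it. CCAAT was present in 20 of 25 mitosis genes (80.0%) and in 29 of 34 core histone genes (85.3%), against 33.0% and 37.1%. Among called members found, 10 of 12 mitosis and 26 of 31 core histone genes held it. The TATA box letters TATAAA were present in 25 of those 34 histone genes (73.5%), against 11.1% of all promoters and 5.29% of tested genes. Of the 31 called histone genes among them, 22 held these letters.

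The counts in this paragraph stand beside 12.5% of all tested genes that rose and 9.86% that fell. Of 12 laminin, integrin and hemidesmosome genes, 7 rose and 0 fell (median 0.41), LAMB3 and the fibronectin receptor subunit ITGA5 (1.07 ± 0.15) first. Without the replicate term 2 of them rose. Of 9 BCL2 family genes 4 rose and 0 fell (median 0.15), among them the proapoptotic BIK (0.87 ± 0.17) and PMAIP1 (0.92 ± 0.18), both without overlap of the groups. Among 6 intestinal differentiation genes KRT20, a keratin of differentiated colon cells, rose and CDX2, an intestinal transcription factor, fell. KRT20 had 101, 92.3 and 93.7 TPM in siVPS37ABC, against 51.3, 44.6 and 31.9 TPM in siVPS37BC (1.17 ± 0.16, limma adjusted p = 7.46e-06). CDX2 had 58.9, 83.2 and 48.2 TPM in siVPS37ABC, against 119, 133 and 128 TPM in siVPS37BC (-1.02 ± 0.15, limma adjusted p = 2.68e-05). The groups stood apart in both. Of 8 Wnt and stem cell genes AXIN2, a feedback inhibitor of Wnt signalling, fell (-0.58 ± 0.10) and none rose (median -0.27). Interferon response genes fell in 2 of 10 and rose in 0, with a median of -0.14. These were USP18, a negative regulator of the pathway (-0.57 ± 0.13), and IFI6 (-0.52 ± 0.15), whose call was lost without siVPS37ABC replicate 1 (limma adjusted p = 0.0627), siVPS37ABC replicate 3 (limma adjusted p = 0.0958) or siVPS37BC replicate 2 (limma adjusted p = 0.0749). Of 10 MHC class I and immunoproteasome genes 1 rose, HLA-E (0.46 ± 0.10), and 1 fell, the proteasome subunit PSMB9 (-0.81 ± 0.15). Ribosome biogenesis genes fell in 5 of 21 and rose in 0 (median -0.24), led by MYBBP1A (-0.65 ± 0.13). Of 9 tubulins 3 rose and 1 fell (median -0.01). Of 8 targets of YAP and TGF-beta 2 rose and 0 fell (median -0.02). Heat shock chaperones fell in 1 of 14 and rose in 0 (median -0.14), and metallothionein and iron genes rose in 3 of 12 and fell in 0 (median 0.27). Those 3 were FTL and FTH1, also counted among the NRF2 targets, and the metallothionein MT2A (0.84 ± 0.17). MT2A missed the threshold without the replicate term (limma adjusted p = 0.122). Of 13 housekeeping genes 0 rose and 1 fell (median -0.04). The falls in the Wnt, MHC class I, heat shock and housekeeping lists were near the share of all tested genes. Without the replicate term 1 target of YAP and TGF-beta rose, 2 ribosome biogenesis genes fell and 0 housekeeping genes fell. After quantile normalization 3 Wnt, 2 heat shock, 2 housekeeping, 1 metallothionein and iron, and 1 of the YAP and TGF-beta genes fell.

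siVPS37A cells were set against siCTRL cells, and this is called the effect in siCTRL cells below. The siVPS37A labels name no control siRNA, so the VPS37A siRNA may have replaced the control siRNA rather than joined it. The same VPS37A siRNA was also added to siVPS37B and siVPS37C cells, and no library of these 3 comparisons is among the 6 above. It called 1572 genes in siVPS37AB against siVPS37B (24.3%; 1150 up, 17.8%; 422 down, 6.53%), 134 in siVPS37AC against siVPS37C (2.07%; 101 up, 1.56%; 33 down, 0.511%) and 409 in siVPS37A against siCTRL (6.33%; 288 up, 4.46%; 121 down, 1.87%). The excess of rises depended on the scaling: after quantile normalization 696 genes rose and 699 fell in siVPS37AB against siVPS37B, 40 rose and 37 fell in siVPS37AC against siVPS37C, and 192 rose and 174 fell in siVPS37A against siCTRL. Across the 6458 genes the change in siVPS37ABC against siVPS37BC correlated with those 3 changes at r = 0.695, 0.585 and 0.498; genes are not independent replicates, and all libraries share the 3 replicate batches and the siRNA. Of the 810 rises, 510 were also rises in siVPS37AB against siVPS37B (63.0% of the 810 and 44.3% of the 1150), and 218 of the 637 falls were shared (34.2% and 51.7% of the 422). With siVPS37A against siCTRL 173 rises (21.4% and 60.1%) and 70 falls (11.0% and 57.9%) were shared, and with siVPS37AC against siVPS37C 63 rises (7.78% and 62.4%) and 27 falls (4.24% and 81.8%). In all 4 backgrounds 60 genes were called the same way, 40 up and 20 down, among them IL32, NFKB2, LCN2, DUSP5, BHLHE40, KLF6, ATF3, EGFR, EDEM1, FNIP1, SQSTM1 and CDA up and HIST1H1D, HIST1H1B and HIST1H2BM down. The counts in the other backgrounds moved with single libraries: for siVPS37AB against siVPS37B they were 905 without siVPS37AB replicate 1, 967 without siVPS37B replicate 1 and 1011 without siVPS37AB replicate 3. For siVPS37AC against siVPS37C they were 61 without siVPS37AC replicate 1, 39 without siVPS37C replicate 1, 3 without siVPS37AC replicate 2 and 24 without siVPS37C replicate 2. For siVPS37A against siCTRL they were 243 without siVPS37A replicate 1, 242, 259 and 183 without siCTRL replicates 1, 2 and 3. In all 3 comparisons, the libraries compared within a replicate carried different numbers in their library descriptions. With that number as a term the counts were 1142 for siVPS37AB against siVPS37B, 26 for siVPS37AC against siVPS37C and 132 for siVPS37A against siCTRL.

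**Figure D4:**
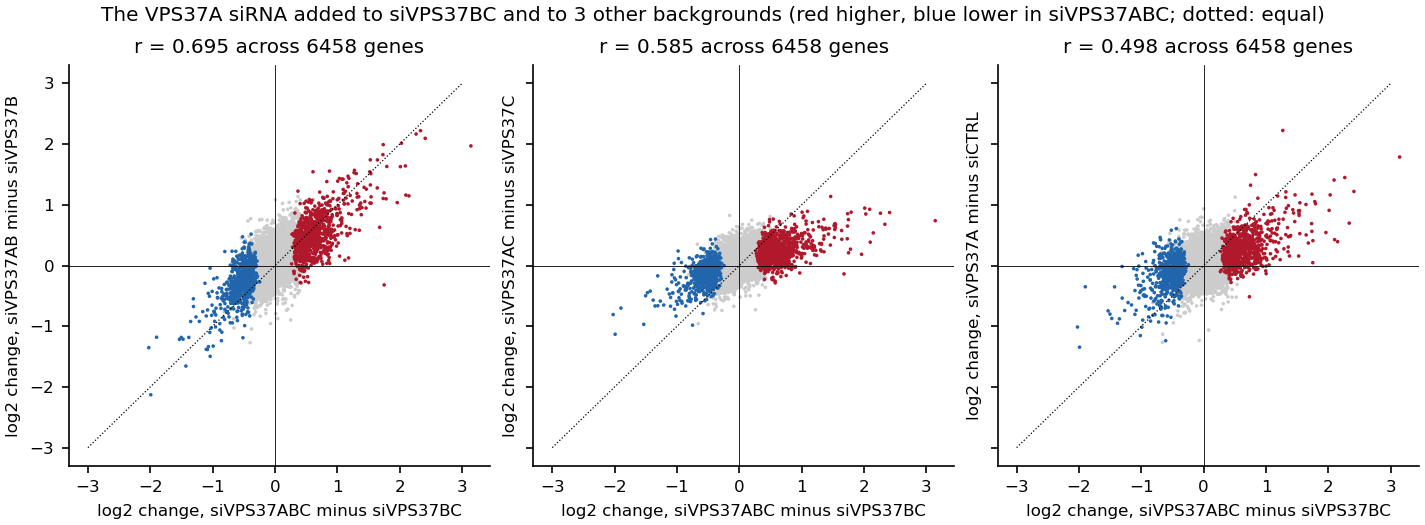
Log2 change of TPM + 1 for 6458 genes when the VPS37A siRNA was added to siVPS37BC (x axis). The y axis shows it added to siVPS37B or siVPS37C, or siVPS37A against siCTRL. Genes called on the x axis are red (higher in siVPS37ABC) or blue (lower), and equality is dotted. The correlation is 0.695 with siVPS37B, 0.585 with siVPS37C and 0.498 with siCTRL.

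Whether the effect of the VPS37A siRNA differed between backgrounds was tested as a difference of effects in the same model. The effect in siVPS37BC cells differed from that in siCTRL cells for 114 genes (1.77%; 56 higher, 0.867%; 58 lower, 0.898%), from that in siVPS37C cells for 99 (1.53%; 63 higher, 0.976%; 36 lower, 0.557%) and from that in siVPS37B cells for 22 (0.341%; 11 higher and 11 lower, 0.170% each). These counts depended on the model. With the number in the library description as a term they were 6 from siCTRL, 85 from siVPS37C and 10 from siVPS37B. After quantile normalization 83 were higher and 50 lower than in siCTRL cells, and 17 were higher and 7 lower than in siVPS37B cells. With the replicate term 1197, 953 and 932 genes had an unadjusted p under 0.05, and without that term limma called 5, 9 and 0 genes. Without all libraries of replicate 3 they were 379, 885 and 419, and without those of replicate 1 they were 3, 0 and 0. Single libraries moved them as well. The 114 became 56 or 50 without siVPS37BC replicate 1 or 2, 72 or 177 without siVPS37A replicate 1 or 2, 73 or 57 without siCTRL replicate 1 or 2, and 40 without siVPS37ABC replicate 3. The 99 became 64 without siVPS37ABC replicate 1, 44 or 55 without siVPS37AC replicate 1 or 2, 54 or 45 without siVPS37C replicate 1 or 2, and 41 or 56 without siVPS37BC replicate 1 or 3. The 22 became 1 or 3 without siVPS37ABC replicate 1 or 2, 13, 2 or 1 without siVPS37AB replicate 1, 2 or 3, 10, 11 or 4 without siVPS37B replicate 1, 2 or 3, and 1, 1 or 38 without siVPS37BC replicate 1, 2 or 3.

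Of the 8 genes that differed from all 3 other backgrounds, CHMP2B, DUSP10, BLVRA and SDHAF3 are among the genes named by size. All 3 differences use the same siVPS37ABC and siVPS37BC libraries, so they are not independent of each other. For CHMP2B the change was 0.83 ± 0.12 when the VPS37A siRNA was added to siVPS37BC cells. It was 0.04 ± 0.12 in siVPS37B, -0.06 ± 0.12 in siVPS37C and -0.07 ± 0.12 in siCTRL cells. The differences were 0.80 ± 0.17 (limma adjusted p = 0.0300), 0.90 ± 0.17 (limma adjusted p = 0.00494) and 0.90 ± 0.17 (limma adjusted p = 0.00611). DUSP10 rose in siVPS37BC cells by 2.15 ± 0.14, and the differences from siVPS37B, siVPS37C and siCTRL were 1.00 ± 0.20, 1.61 ± 0.20 and 1.76 ± 0.20 (limma adjusted p = 0.0295, 6.07e-05 and 2.36e-05). BLVRA, biliverdin reductase A of haem breakdown, had 152, 184 and 153 TPM in siVPS37ABC, against 83.5, 86.4 and 74.7 TPM in siVPS37BC (0.99 ± 0.10), with differences of 0.67, 0.60 and 0.85 (SE 0.14 each). SDHAF3, an assembly factor of mitochondrial complex II, had 37.4, 38.6 and 44.0 TPM in siVPS37ABC, against 73.4, 62.0 and 60.2 TPM in siVPS37BC (-0.69 ± 0.13), with differences of -0.93, -0.83 and -0.84 (SE 0.18 each). The groups did not overlap in either gene. Without the replicate term DUSP10 alone of these 4 still differed, from siVPS37C (limma adjusted p = 0.00185) and siCTRL (limma adjusted p = 0.000857).

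LAMB3 had a change of 2.10 ± 0.17 in siVPS37BC cells, against 1.16 ± 0.17 in siVPS37B, 0.39 ± 0.17 in siVPS37C and 0.43 ± 0.17 in siCTRL cells. Its difference was 1.71 ± 0.23 from siVPS37C (limma adjusted p = 0.000223) and 1.67 ± 0.23 from siCTRL (limma adjusted p = 0.000439), and missed the threshold from siVPS37B (0.94 ± 0.23, limma adjusted p = 0.0766). FTL changed by -0.14 ± 0.18 in siVPS37C cells, a difference of 1.82 ± 0.26 (limma adjusted p = 0.000388). CDKN1A changed by 0.19 ± 0.22 there, a difference of 1.78 ± 0.31 (limma adjusted p = 0.00305). SURF4, a cargo receptor of the endoplasmic reticulum, was at 134, 148 and 164 TPM in siVPS37ABC, against 145, 151 and 145 TPM in siVPS37BC (0.01 ± 0.16, limma adjusted p = 0.983), with the groups overlapping. It rose in siVPS37AB against siVPS37B (1.08 ± 0.16, limma adjusted p = 1.75e-05), a difference of -1.08 ± 0.22 (limma adjusted p = 0.0299). HIST1H1D fell in all 4 backgrounds and by more in siVPS37BC than in siVPS37C cells (difference -1.22 ± 0.19, limma adjusted p = 0.00136).

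**Figure D5:**
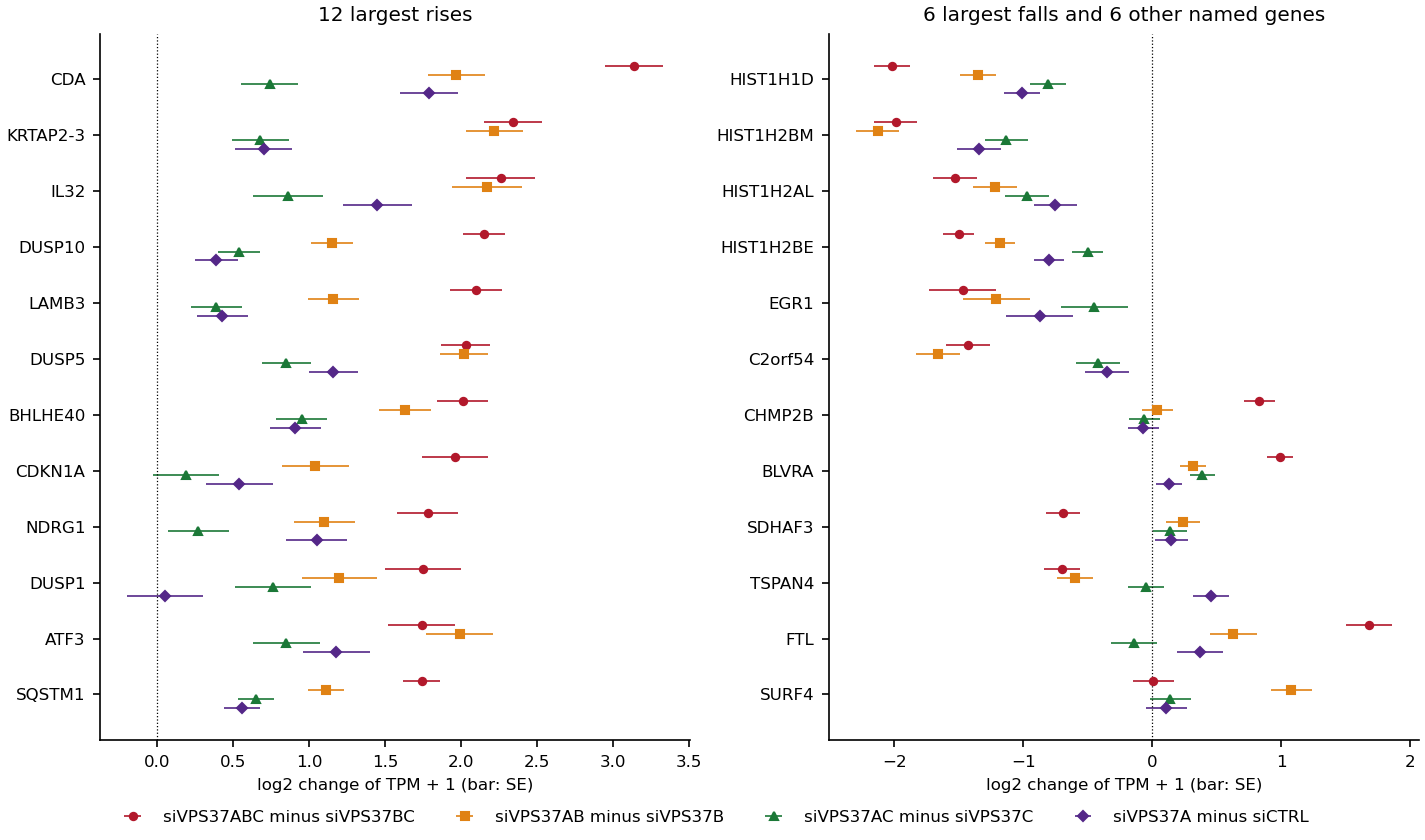
Log2 change of TPM + 1 with its SE when the VPS37A siRNA was added to siVPS37BC, siVPS37B or siVPS37C, and in siVPS37A against siCTRL. Shown are the 12 largest rises (left) and 6 largest falls among genes averaging 30 TPM or more, with 6 other named genes (right). CHMP2B moves by 0.83 in siVPS37BC cells and by -0.07 to 0.04 in the other backgrounds, while SURF4 moves by 0.01 in siVPS37BC and 1.08 in siVPS37B cells.

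Against siCTRL, siVPS37ABC changed 2137 genes (33.1%; 1256 up, 19.4%; 881 down, 13.6%) and siVPS37BC changed 283 (4.38%; 155 up, 2.40%; 128 down, 1.98%). Both share the siCTRL libraries with each other, and each shares its own libraries with the comparison above, so the values are given side by side only. Within each replicate, the siCTRL library differed from both in the number given in its library description. Neither comparison was fitted with that number as a term, so within a replicate the siRNAs and that number cannot be told apart. CDA was 4.45 above siCTRL on the log2 scale in siVPS37ABC and 1.31 above it in siVPS37BC. KRTAP2-3 was 3.10 above siCTRL in siVPS37ABC and 0.77 above it in siVPS37BC. EGR1 stood at -2.38 in siVPS37ABC and -0.91 in siVPS37BC, relative to siCTRL. For FTL (1.12 in siVPS37ABC, -0.56 in siVPS37BC), LAMB3 (1.60 in siVPS37ABC, -0.50 in siVPS37BC) and GCLC (0.48 in siVPS37ABC, -0.52 in siVPS37BC) the signs were opposite in the 2 groups. Of the 16 NF-kB members 11 rose and 1 fell in siVPS37ABC, and 1 rose and 0 fell in siVPS37BC. Of the 15 NRF2 members 9 rose in siVPS37ABC and 0 in siVPS37BC, where 3 fell. Core histones fell in 40 of 42 in siVPS37ABC and in 2 of 42 in siVPS37BC.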

How the data were processed

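Total RNA of DLD1 cells was measured with the Ion AmpliSeq Transcriptome panel, per the labels' protocols. HTSeq 0.6.0, DESeq2 1.18.1 and the build hg19 are named without a role in the submitters' processing notes. The authors deposited 1 table of 10470 genes by 27 libraries, with values on a TPM scale: every column sums to 1000000 and low values share no step of whole reads, so the depth is unknown and counting intervals cannot be given. Lines without a gene name (2157 of 12627) were dropped, and 11 of 282690 values are 0.

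Values were taken as log2(TPM + 1) and fitted with limma 3.58.1 (R 4.3.3) on all 9 groups, the replicate number as a block, a mean-variance trend and 16 residual degrees of freedom. Genes averaging 10 TPM or more were tested (6458; 4012 were not), with Benjamini-Hochberg adjustment at 0.05. The block is part of the comparison because the labels give the replicate number as the batch and pair the libraries by it. Deviations from the group means correlated at r = 0.607, 0.568 and 0.537 for the same number, and at -0.506 to -0.051 for different numbers. Deviations within a group cancel out, so positive values for the same number make the others negative on balance. A change that differs between backgrounds was tested as a difference of effects in the same model. edgeR was not run, since no counts could be recovered. The method was tested on simulated data.

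Named genes were VPS37A, VPS37B and VPS37C, the 12 genes that rose most and the 12 that fell most, of those that averaged 30 TPM or more and moved one way in 3 pairs, up to 4 called members of each list with the smallest p, and the 3 largest positive and 3 largest negative differences of effects; other list members are named where they alone moved against the list or complete a pair, chosen after their values were seen. The members and lists were chosen with earlier results of these data known. Promoters are the 250 bases before the RefSeq start (GRCh38.p14), found for 5464 tested genes and 90 of 118 named genes. Alternatives were the model without the block, other filters, a pseudocount of 8 TPM, quantile normalization, the library description number as a term, the compared groups alone, and omission of single libraries or replicate numbers. Figures were drawn with matplotlib 3.10.9 in Python 3.11.15. One named gene is not reported here.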

Additional observations from a re-analysis of the deposited data

Results flagged for a closer look

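The results in this part are genes whose response to the VPS37A siRNA in siVPS37BC cells differed from the response in another background by the test of the difference itself (limma, adjusted p under 0.05). Values are differences of log2 changes, with the effect in siVPS37BC cells taken first. That effect comes from the same libraries in every difference, so a gene that recurs below is not an independent result.

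From the effect in siCTRL cells, DUSP10 differed by 1.76, DUSP1 by 1.70, LAMB3 by 1.67 and KRTAP2-3 by 1.64. CHMP2B differed by 0.90 and BLVRA by 0.85. HIST3H2A differed by -1.29, TSPAN4, a tetraspanin, by -1.16, CORO1A, an actin-binding coronin, by -1.14 and SDHAF3 by -0.84. TSPAN4 fell in siVPS37BC cells (-0.70 ± 0.14) and had a change of 0.46 ± 0.14 in siCTRL cells. CORO1A did not pass in siVPS37BC cells (-0.38 ± 0.18) and rose in siCTRL cells (0.75 ± 0.18). The difference of HIST3H2A passed in 5 of 22 other settings and that of DUSP10 in 21 of 21.

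From the effect in siVPS37B cells, MARCH2, an E3 ubiquitin ligase of endosomes, differed by 1.15, DUSP10 by 1.00, CHMP2B by 0.80 and BLVRA by 0.67. SURF4 differed by -1.08, SDHAF3 by -0.93 and FAM136A, a mitochondrial protein gene, by -0.90. MARCH2 did not pass in siVPS37BC cells (0.25 ± 0.18) and fell in siVPS37B cells (-0.90 ± 0.18). These passed in 6 (MARCH2) to 11 (CHMP2B) of the other settings, out of 21 or 22.

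From the effect in siVPS37C cells, FTL differed by 1.82, CDKN1A by 1.78, LAMB3 by 1.71 and DUSP10 by 1.61. CHMP2B differed by 0.90 and BLVRA by 0.60. HIST1H1D differed by -1.22, C2orf54 by -1.01, HIST1H2BE by -1.0 and SDHAF3 by -0.83. FTL and LAMB3 passed in 21 of 22 other settings, CDKN1A and DUSP10 in 20 of 21, and C2orf54 in 6 of 21. None of the differences given here changed sign under another setting.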

How the results depend on the processing

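Of the 109 called genes named by the rules for the main comparison and the lists, none changed sign under another setting. Among them 16 lost their call without the replicate block, 15 when a single library was left out and 25 when a replicate number was left out. The losses were 6 with the library description number as a term and 1 each with quantile normalization and with no filter. With a pseudocount of 8 TPM or the compared groups alone there were none. Genes named outside those rules are not in these counts. Of such genes SOD2, CTSC, CTSH, HIST1H2BK, CCNE1, PMVK and TM7SF2 also lost their calls without the block. VPS37C reversed, without passing the threshold in either case, to 0.06 after quantile normalization; the cause was not tested.

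Without the replicate block the counts of called genes were 776 for siVPS37ABC against siVPS37BC, 118 for siVPS37A against siCTRL, 799 for siVPS37AB against siVPS37B and 12 for siVPS37AC against siVPS37C. The differences of effects without the block were 5 from siCTRL, 0 from siVPS37B and 9 from siVPS37C. The pairing itself is given with the processing. With a floor of 50 TPM on the mean, which tests fewer genes, these 7 counts were 615, 183, 615, 64, 43, 7 and 56. With no filter the differences were 209 from siCTRL and 157 from siVPS37C. The library description number is a number in the descriptions of the libraries. The siVPS37ABC and siVPS37BC libraries of a replicate shared it, except in replicate 3. With this number as a term, siVPS37ABC against siVPS37BC gave 1085, siVPS37A against siCTRL 132 and siVPS37AC against siVPS37C 26. The differences were then 6 from siCTRL and 10 from siVPS37B. With the compared groups alone, siVPS37A against siCTRL gave 53, siVPS37AC against siVPS37C 2, and the differences 24 from siCTRL, 160 from siVPS37B and 161 from siVPS37C. Quantile normalization gave 77 for siVPS37AC against siVPS37C. Leaving out a library or a replicate number gave 517 to 1814 for siVPS37ABC against siVPS37BC, 67 to 557 for siVPS37A against siCTRL, 316 to 2180 for siVPS37AB against siVPS37B and 0 to 1483 for siVPS37AC against siVPS37C. The differences then ranged from 2 to 379 from siCTRL, 0 to 419 from siVPS37B and 0 to 885 from siVPS37C. edgeR and DESeq2 were not run, because whole reads could not be recovered. The unknown depth leaves low genes, VPS37A among them, without a counting error.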

Other observations

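Gene families not covered by the lists were grouped by the shared start of their symbols, with at least 20 tested genes each, and described after their values were seen. Over all tested genes 12.5% rose and 9.86% fell, and the counts below are to be read against these shares. Genes whose symbols start with RAB, mostly small GTPases of vesicle traffic, rose in 10 of 35 and fell in 3 (median 0.27, against 0.0028 over all tested genes). RAB5B of early endosomes averaged 72.9 TPM in siVPS37ABC and 41.4 TPM in siVPS37BC (0.80 ± 0.11, limma adjusted p = 1.35e-05). RAB7A of late endosomes averaged 243 TPM in siVPS37ABC and 138 TPM in siVPS37BC (0.80 ± 0.13, limma adjusted p = 4.74e-05). RAB8B (-0.70 ± 0.22), RAB20 (-0.53 ± 0.11) and RAB8A (-0.33 ± 0.10) were the members that fell.

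Genes starting with UBE, largely ubiquitin-conjugating enzymes, rose in 6 of 31 and fell in 0 (median 0.13). UBE2H averaged 76.6 TPM in siVPS37ABC and 25.6 TPM in siVPS37BC (1.54 ± 0.14, limma adjusted p = 1.54e-08), and it rose in all 4 backgrounds. RNA polymerase subunits (POLR) fell in 7 of 22 and rose in 0 (median -0.14). POLR2L averaged 1800 TPM in siVPS37ABC and 2980 TPM in siVPS37BC (-0.74 ± 0.15, limma adjusted p = 0.00102). Mitochondrial ribosomal proteins of the large subunit (MRPL) fell in 8 of 43 and rose in 0 (median -0.19), MRPL20 by 0.58 ± 0.10 on the log2 scale. Those of the small subunit (MRPS) fell in 3 of 26 and rose in 0 (median -0.12), near the share of all tested genes that fell. Of 43 RPL genes of the cytosolic ribosome 1 rose and 0 fell, and of 33 RPS genes 0 rose and 2 fell.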
